A study of Camelus dromedarius with 30 samples.

Results

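Kidney tubules take sodium back from the filtrate with the help of channels, pumps and exchangers, and the genes described here code for parts of each: *SCNN1A*, the alpha subunit of the epithelial sodium channel ENaC, *ATP1B3*, the beta 3 subunit of the sodium-potassium pump (Na/K-ATPase), and *SLC9A3* and *SLC9A7*, the sodium-proton exchangers NHE3 and NHE7. They were chosen by name and identifier, with earlier results of these data known. They make up 4 of the 22444 gene rows of a count table from dromedary kidney. The study itself had picked *SCNN1A*, *ATP1B3* and *SLC9A7* on these libraries, so a change in one of them is not independent evidence of its direction. The RNA-seq libraries, 30 in all, were made from poly(A) RNA of kidney cortex and medulla of male dromedary camels aged 4 to 5 years. The labels number 15 camels with 1 library of each tissue, but by the second names they give to libraries only 4 rehydrated camels have both tissues. The 5 control camels drank freely, the 5 dehydrated camels had no water for 20 days with food at hand, and the 5 rehydrated camels went through the same 20 days and then drank freely for 3 days. All camels ate alfalfa hay, were kept on a ranch, and were sampled after slaughter at an abattoir.

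The sodium-potassium pump sits in the basolateral membrane of tubule cells and keeps sodium inside the cell low, so that sodium enters from the filtrate through channels and carriers of the apical membrane. Its alpha subunit moves the ions, and its beta subunit is needed for folding and for delivery to the membrane. NHE3 is known as the main apical sodium-proton exchanger of the proximal tubule and is also found in the thick ascending limb, whereas NHE7 is known from the trans-Golgi network and endosomes. ENaC is the apical channel of the collecting duct through which aldosterone sets the last part of sodium uptake, and it is built from alpha, beta and gamma subunits. In whole tissue, fewer cells of a type and less RNA per cell cannot be told apart.

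On the CamDro2 assembly, *SCNN1A* (ENSCDRG00005010881) lies on the minus strand at chr34:4823404-4844418 and *ATP1B3* (ENSCDRG00005009339) on the plus strand at chr1:19129836-19167680. *SLC9A3* (ENSCDRG00005013790) lies on the plus strand at chr3:119492474-119531502 and *SLC9A7* (ENSCDRG00005020882) on the minus strand at chrX:36966049-37089523. No other gene of the table overlaps any of them on either strand, and each value is the sum over the exons of the whole gene. The name *SLC9A3* comes from the study's list of proteins that differed between conditions, since its row carries the identifier alone.

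The libraries held 12634346 to 20005136 counted read pairs (median 16846403), and 15376 genes passed the filter on low counts, all 4 among them. Levels are given as counts per 1000000 (CPM) of the library total, scaled by edgeR's TMM method, as mean ± SD over 5 camels. The variation between camels, expressed as the biological coefficient of variation, was 34% for all genes, and 23.8% for *SCNN1A*, 18% for *ATP1B3*, 65.2% for *SLC9A3* and 30.6% for *SLC9A7*. With 8 to 750 read pairs per library for *SLC9A3* and 13 to 404 for *SLC9A7*, counting error adds to that variation in these genes. A difference is called where the p-value of edgeR's quasi-likelihood test, adjusted by Benjamini-Hochberg over the 15376 genes, is under 0.05. The tissue labels were checked against fixed marker genes: the 2 proximal tubule markers with a row summed to 653 to 2293 CPM in cortex libraries and 4.85 to 143 CPM in medulla libraries, and the 2 of the thick ascending limb to 3123 to 7748 and 10881 to 21249 CPM. The latter 2 went opposite ways: *UMOD* was higher in the medulla by 2.21, 1.20 and 2.31 on the log2 scale in control, dehydrated and rehydrated camels, and *CLDN10* differed by -0.71, -0.66 and -1.16 (all called). The only podocyte marker with a row, *SYNPO*, was at 0.685 to 7.74 CPM in the cortex and at 6.26 to 23.3 CPM in the medulla, and no fixed symbol for leukocytes or urothelium could be matched to a row, since a symbol was at hand for 3654 of the 22444 rows. Dehydration and rehydration were each compared with the same control camels, so those comparisons are not independent of each other.

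**Figure D1:**
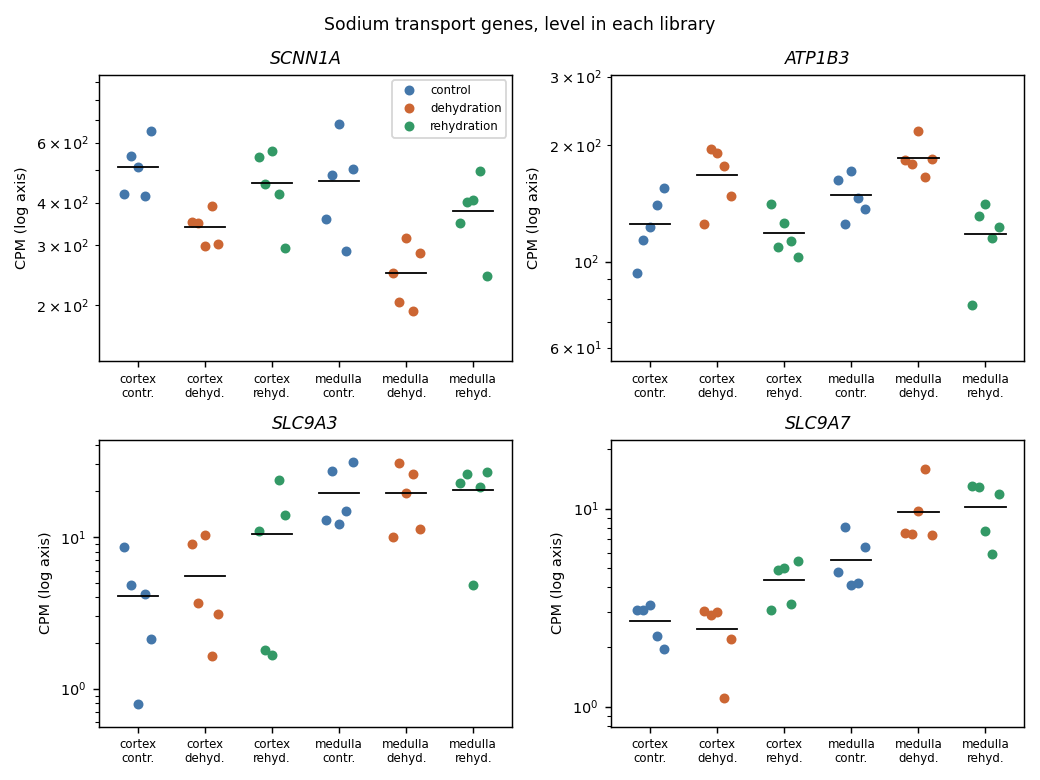
Level of each gene in every library (CPM on a log axis), by tissue and condition, with a bar at the arithmetic mean of 5 camels. *SCNN1A* is lowest in the dehydrated groups of both tissues, *ATP1B3* is highest there, and *SLC9A3* and *SLC9A7* separate mainly by tissue.

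*SCNN1A* was lower in the dehydrated medulla than in the control medulla, by 1.85-fold (95% interval 1.38 to 2.49). The 5 control medullas held 357, 482, 678, 288 and 503 CPM (462 ± 150). After 20 days without water they held 248, 204, 316, 192 and 285 CPM (249 ± 52.5). Only 1 dehydrated medulla (316 CPM) was above the lowest control medulla (288 CPM), so the groups overlapped by that pair. The log2 fold change was -0.89 (SE 0.21, adjusted p = 0.0227, edgeR), in a comparison in which 1.68% of tested genes were called. The adjusted p passed 0.05 when medulla control 3 (log2 fold change -0.71, 0.111), medulla control 5 (-0.86, 0.0528), medulla dehydration 2 (-0.83, 0.0623) or medulla dehydration 4 (-0.81, 0.0918) was left out. It was 0.105 when the medulla libraries were fitted alone and 0.113 when the 2 groups were fitted alone, with log2 fold changes of -0.87 and -0.89.

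In the cortex, the 5 control samples held 425, 547, 508, 417 and 649 CPM of *SCNN1A* (509 ± 95.8), and the 5 dehydrated samples 352, 348, 298, 392 and 303 CPM (339 ± 38.9). Every dehydrated cortex was below every control cortex, which was so in 1 direction or the other for 5.53% of tested genes. The log2 fold change of -0.59 (SE 0.21, 95% interval -1.01 to -0.16) did not pass the adjusted test (adjusted p = 0.139, edgeR), and 2.45% of tested genes did. Fitted on these 2 groups alone, it was -0.60 with an adjusted p of 0.034. The response of the medulla differed from that of the cortex by -0.30 on the log2 scale (95% interval -0.90 to 0.30, adjusted p = 0.854), a contrast in which 0.0455% of genes were called.

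After 3 days of drinking, the 5 cortex samples held 545, 453, 565, 423 and 294 CPM (456 ± 109), and the 5 medulla samples 348, 402, 407, 496 and 243 CPM (379 ± 92.9). In each tissue the rehydrated camels spanned the range from dehydrated to control values, and replicate 5 was the lowest of the group. Against dehydration, *SCNN1A* differed by 0.43 on the log2 scale in the cortex (adjusted p = 0.325) and 0.61 in the medulla (95% interval 0.18 to 1.03, adjusted p = 0.0921), and 2.32% and 3.67% of genes were called. Against control, it was -0.16 (95% interval -0.58 to 0.26) in the cortex and -0.28 (-0.71 to 0.14) in the medulla, with 0.0845% and 0.813% of genes called. The rehydration response, taken against dehydration, differed between the tissues by 0.18 (adjusted p = 0.865), where 0.0195% of genes were called.

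ENaC opens in principal cells, and of the 6 markers fixed for that cell type *AQP2*, *AQP3* and *HSD11B2* had a row. Their summed level in the medulla was 329 to 718 CPM in control, 449 to 1182 in dehydrated and 597 to 823 in rehydrated camels, and none of them was at 0. The water channel gene *AQP2* was at 184, 413, 311, 227 and 297 CPM in the control medulla. It was at 288, 420, 769, 500 and 534 CPM in the dehydrated medulla. Its log2 fold change of 0.81 (adjusted p = 0.0555) had the opposite sign to *SCNN1A*, as had that of *AQP3* (1.37, adjusted p = 0.174, edgeR). *HSD11B2*, which inactivates cortisol in aldosterone target cells, fell with dehydration in the medulla (log2 fold change -1.07, adjusted p = 0.0155), a call lost without medulla control 3 or medulla dehydration 4 (adjusted p up to 0.064) and in 3 of 11 other alternatives (adjusted p up to 0.173). In the cortex, where *SCNN1A* was not called, dehydrated camels had higher *AQP3* than controls (log2 fold change 2.36, adjusted p = 0.0166). The distal convoluted tubule marker *PVALB* (2.21, 0.00156) and the endothelial marker *PECAM1* (0.74, 0.00431) were also higher. Other markers of these lists were not called: *CALB1* of the distal convoluted tubule (-1.38, 0.189), *HSD11B2* (-0.63, 0.175), *AQP2* (0.22, 0.745), *CDH5* (0.39, 0.388) and *VWF* (0.30, 0.614). The sum of the 2 distal convoluted tubule markers was 661 to 2282 CPM in control and 494 to 856 CPM in dehydrated cortex. The intercalated cell marker *ATP6V1B1*, the only 1 of 6 with a row, was at 220 to 288 CPM in control and 110 to 168 CPM in dehydrated medulla. The part that cell composition has in the lower *SCNN1A* was not tested.

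*ATP1B3* showed the opposite order, with its highest levels in dehydrated camels of both tissues, and it fell by 1.58-fold (95% interval 1.27 to 1.96) from dehydration to rehydration in the medulla. The dehydrated medulla held 183, 179, 217, 165 and 184 CPM (186 ± 19.0), and the rehydrated medulla 77.5, 131, 141, 115 and 123 CPM (117 ± 24.3). The groups did not overlap, as was so for 4.75% of tested genes in this comparison. The log2 fold change was -0.66 (SE 0.15, adjusted p = 0.0148, edgeR). Without medulla rehydration 1, the lowest library, it was -0.54 with an adjusted p of 0.056. With these 2 groups fitted alone it was -0.69 with an adjusted p of 0.0682.

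The control medulla lay between these groups, at 162, 125, 171, 146 and 137 CPM (148 ± 18.5). The differences from it, of 0.32 after dehydration (95% interval 0.01 to 0.63) and -0.34 after rehydration (-0.65 to -0.03) on the log2 scale, did not pass the adjusted test (adjusted p = 0.345 and 0.287, edgeR). In the cortex, control camels held 93.4, 114, 123, 140.0 and 155 CPM (125 ± 23.8), dehydrated camels 125, 195, 191, 177 and 148 CPM (167 ± 29.8), and rehydrated camels 141, 109, 126, 113 and 103 CPM (118 ± 15.2). Of the dehydrated cortex samples, 3 were above all controls, and replicates 1 and 5, at 125 and 148 CPM, were within the control range. The cortex log2 fold changes were 0.42 for dehydration against control (adjusted p = 0.153), -0.50 for rehydration against dehydration (adjusted p = 0.0803) and -0.08 for rehydration against control (adjusted p = 0.967). Between tissues, the dehydration response of *ATP1B3* differed by -0.10 (95% interval -0.54 to 0.34) and the rehydration response by -0.16 (-0.60 to 0.28).

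**Figure D2:**
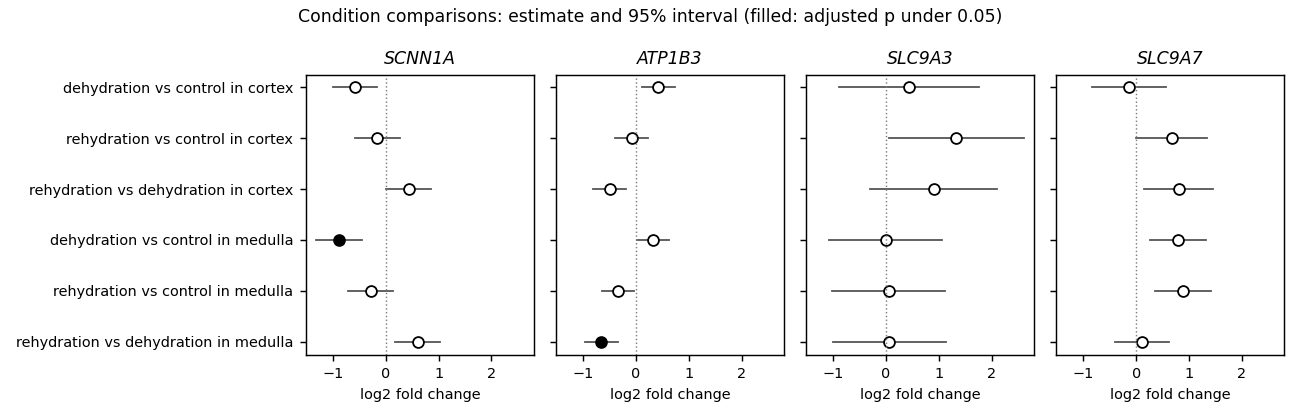
Log2 fold change (x axis) of each gene in the 6 comparisons of conditions, as edgeR's estimate with its 95% interval, filled where the adjusted p was under 0.05. The filled points are *SCNN1A* for dehydration against control in the medulla (-0.89) and *ATP1B3* for rehydration against dehydration in the medulla (-0.66), and the intervals of *SLC9A3* are the widest.

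The beta 3 subunit was a minor beta subunit at the RNA level. Per length, as transcripts per 1000000 (TPM), *ATP1B3* averaged 95.8 in the cortex and 176 in the medulla, against 838 and 1911 for *ATP1B1*, the beta 1 subunit. Its share of the 2 beta subunits in the medulla was 7.83% ± 2.02 in control, 13.6% ± 2.23 in dehydrated and 6.35% ± 2.54 in rehydrated camels. The 5 dehydrated medullas, at 10.7% to 15.7%, lay above the 5 rehydrated ones, at 4.23% to 10.5%. The CPM of *ATP1B3* alone did not overlap between these groups either, so this is not a separate result. In the cortex the shares were 11.2% ± 4.48, 16.1% ± 3.59 and 8.3% ± 2.93. Shares are a description and were not tested.

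*ATP1B1* itself had the opposite sign to *ATP1B3* in the dehydrated medulla, but none of its differences between conditions passed the test. It held 1318 to 1991 CPM in the control medulla, 916 to 1376 in the dehydrated and 1105 to 2259 in the rehydrated medulla, and the log2 fold change of dehydration against control was -0.59 (adjusted p = 0.269). *FXYD6*, a small regulator of the pump, had log2 fold changes of 0.80 in the cortex (adjusted p = 0.275) and 0.40 in the medulla (adjusted p = 0.621) after dehydration. The other 11 symbols of the pump list were not analysed here.

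*SLC9A7* stood higher in medulla than cortex in each condition, and its mean level in the medulla was above that of controls after dehydration and after rehydration without passing the adjusted test. The control medulla held 4.78, 8.1, 4.12, 4.19 and 6.39 CPM (5.52 ± 1.71). The dehydrated medulla held 7.54, 7.46, 9.69, 15.9 and 7.38 CPM (9.59 ± 3.65), and the rehydrated medulla 13.0, 12.8, 7.75, 5.9 and 11.8 CPM (10.2 ± 3.22). One control medulla, replicate 2 at 8.1 CPM, lay within the dehydrated range, and the other 4 lay below it. The log2 fold change was 0.79 (SE 0.26, 95% interval 0.26 to 1.32, adjusted p = 0.133) after dehydration and 0.89 (SE 0.26, 95% interval 0.36 to 1.42, adjusted p = 0.0894) after rehydration. The latter passed at an adjusted p of 0.0482 without medulla control 2 (log2 fold change 1.07) and of 0.034 without medulla rehydration 4 (1.03). From dehydration to rehydration it differed by 0.10 (95% interval -0.41 to 0.62).

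In the cortex *SLC9A7* stood at 3.06, 3.06, 3.25, 2.27 and 1.95 CPM in controls (2.72 ± 0.573) and at 3.05, 2.91, 3.01, 1.11 and 2.2 CPM in dehydrated camels (2.46 ± 0.826). Rehydrated camels held 3.06, 4.91, 4.99, 3.31 and 5.45 CPM (4.34 ± 1.08), all above every dehydrated cortex, although the nearest values were 3.06 and 3.05 CPM. Such a separation was found for 4.36% of tested genes. The log2 fold change from dehydration to rehydration was 0.81 (95% interval 0.15 to 1.46, adjusted p = 0.213, edgeR). Against control it was -0.14 after dehydration (adjusted p = 0.918) and 0.67 after rehydration (adjusted p = 0.601). The dehydration response of the medulla exceeded that of the cortex by 0.93 (unadjusted p = 0.0415, adjusted p = 0.633, edgeR), which did not pass.

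*SLC9A3* did not pass the test in any of the 6 comparisons of conditions, and it varied most among the camels of a group. In the cortex, controls held 8.59, 4.8, 0.788, 4.18 and 2.13 CPM (4.10 ± 2.98), dehydrated camels 8.93, 3.64, 10.3, 1.63 and 3.08 CPM (5.52 ± 3.85), and rehydrated camels 10.9, 1.79, 1.66, 23.7 and 13.9 CPM (10.4 ± 9.22). The rehydrated cortex thus fell into 3 samples above every control and 2 samples below the control median. Its highest library, cortex rehydration 4, also held the highest *SYNPO* (7.74 CPM), the highest sum of 2 distal convoluted tubule markers (2427 CPM) and the lowest sum of thick ascending limb markers (3123 CPM) of the cortex libraries, and the part of these in the value was not tested. The log2 fold change against control was 0.43 after dehydration (95% interval -0.89 to 1.76) and 1.33 after rehydration (0.06 to 2.61, adjusted p = 0.567).

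In the medulla *SLC9A3* held 12.9, 27.0, 12.2, 14.7 and 31.1 CPM in controls (19.6 ± 8.80), 9.97, 30.6, 19.5, 25.8 and 11.3 CPM in dehydrated camels (19.4 ± 8.93) and 22.5, 26.1, 4.78, 21.2 and 26.6 CPM in rehydrated camels (20.2 ± 8.95). The 3 groups covered nearly the same range. The log2 fold changes were -0.01 for dehydration against control (95% interval -1.08 to 1.05), 0.05 for rehydration against control (-1.02 to 1.12) and 0.06 for rehydration against dehydration (-1.0 to 1.13), so that the intervals reached about 2-fold in each direction.

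Between tissues, *SLC9A7* was higher in the medulla in each condition and *SLC9A3* in control and dehydrated camels. In the fit of all 30 libraries without a block, *SCNN1A* and *ATP1B3* passed the test in no condition. For *SLC9A3* the log2 difference of medulla over cortex was 2.23 in controls (4.7-fold, 95% interval 1.99 to 11.1, adjusted p = 0.00253) and 1.79 in dehydrated camels (3.45-fold, 1.53 to 7.79, adjusted p = 0.00809). In rehydrated camels it was 0.95 (95% interval -0.17 to 2.07, adjusted p = 0.132), and 1.5 (adjusted p = 0.026) without cortex rehydration 4. For *SLC9A7* it was 1.03 in controls (adjusted p = 0.00562), 1.95 in dehydrated camels (3.87-fold, 95% interval 2.54 to 5.89, adjusted p = 3.27e-06) and 1.25 in rehydrated camels (adjusted p = 0.000384). Of the other genes of these families, *ATP1B1* (0.72, adjusted p = 0.0137), *FXYD6* (1.36, 0.00131) and *SLC9A4* (1.84, 0.0323) were higher in the control medulla than the control cortex, *SLC9B1* was lower (-1.43, 0.0101), and *SLC9A2* did not pass (-0.08, 0.832). With 1 library left out, the call was lost in 5 fits for *SLC9A4* and in 1 fit each for *SLC9B1* and *ATP1B1*. It was also lost in 2 other alternatives each for *SLC9A4* and *SLC9B1* (adjusted p up to 0.0866 and 0.212). The 2 tissues did not overlap for *SLC9A7* in any condition, nor for *SLC9A3* in controls. The order of *SLC9A3* was opposite to that of the 2 proximal tubule markers with a row. Their sum was 653 to 2293 CPM in cortex and 4.85 to 143 CPM in medulla libraries. Of the thick ascending limb markers, *UMOD* was higher in the medulla and *CLDN10* was lower. The name *SLC9A3* came from the study's protein list alone and was not tested. Differences between the tissues were common: edgeR called 60.9%, 65.4% and 61.1% of tested genes in control, dehydrated and rehydrated camels, and the groups did not overlap for 42.9%, 54.8% and 30.3%.

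**Figure D3:**
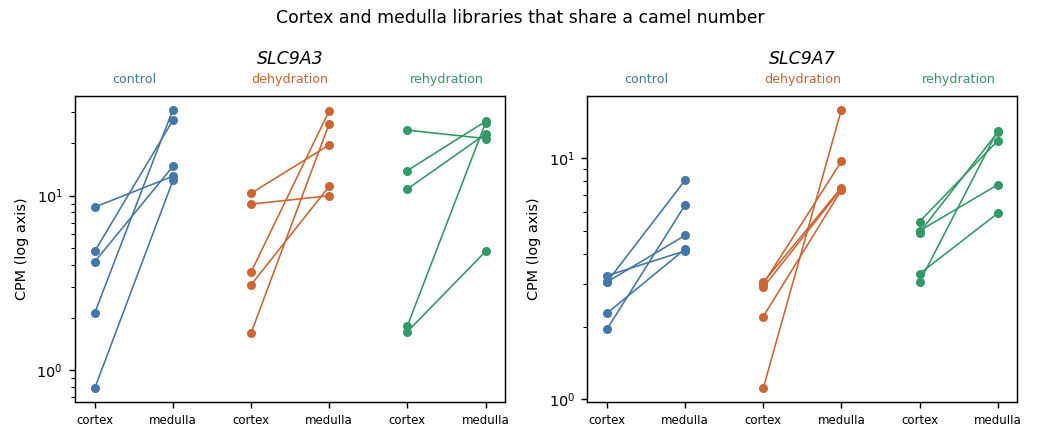
*SLC9A3* and *SLC9A7* in the cortex and medulla libraries that carry the same camel number (CPM on a log axis), 1 line per number, by condition. Every line rises towards the medulla except 1 of the 5 rehydration lines of *SLC9A3*.

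Between libraries of the same camel number the direction was the same. The medulla held more *SLC9A7* than the cortex in 5 of 5 camels of each condition, and more *SLC9A3* in 5 of 5 control, 5 of 5 dehydrated and 4 of 5 rehydrated camels. The rehydrated libraries carry second names in the labels that pair cortex and medulla otherwise, and by those names *SLC9A3* was higher in the medulla in 4 of 4 rehydrated camels. *SCNN1A* was lower in the medulla in 4 of 5 camels of each condition, with log2 differences of -0.14 in controls (adjusted p = 0.564), -0.44 in dehydrated (adjusted p = 0.0616) and -0.27 in rehydrated camels (adjusted p = 0.267). With the camel as a block, the difference in dehydrated camels passed the test, at -0.46 (adjusted p = 0.0298 by the numbers of the labels and 0.0258 by their second names). *ATP1B3* differed by 0.25, 0.15 and -0.01 in the 3 conditions (adjusted p = 0.16, 0.394 and 0.945, edgeR), and the last value changed sign with DESeq2's size factors (0.05).

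In order of mean CPM, *SCNN1A* ran from control cortex (509) over control medulla (462), rehydrated cortex (456), rehydrated medulla (379) and dehydrated cortex (339) to dehydrated medulla (249). Of the neighbours in that order, only dehydrated cortex and dehydrated medulla stood further apart than the larger SD of the pair. The order of *ATP1B3* ran from dehydrated medulla (186) and dehydrated cortex (167) over control medulla (148) and control cortex (125) to rehydrated cortex (118) and rehydrated medulla (117), and no neighbours stood further apart than the larger SD. *SLC9A3* had the 3 medulla groups first (20.2 to 19.4), followed by rehydrated, dehydrated and control cortex (10.4, 5.52 and 4.10), again with no step above the larger SD. For *SLC9A7* the steps from dehydrated medulla (9.59) to control medulla (5.52) and from rehydrated cortex (4.34) to control cortex (2.72) exceeded it.

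**Figure D4:**
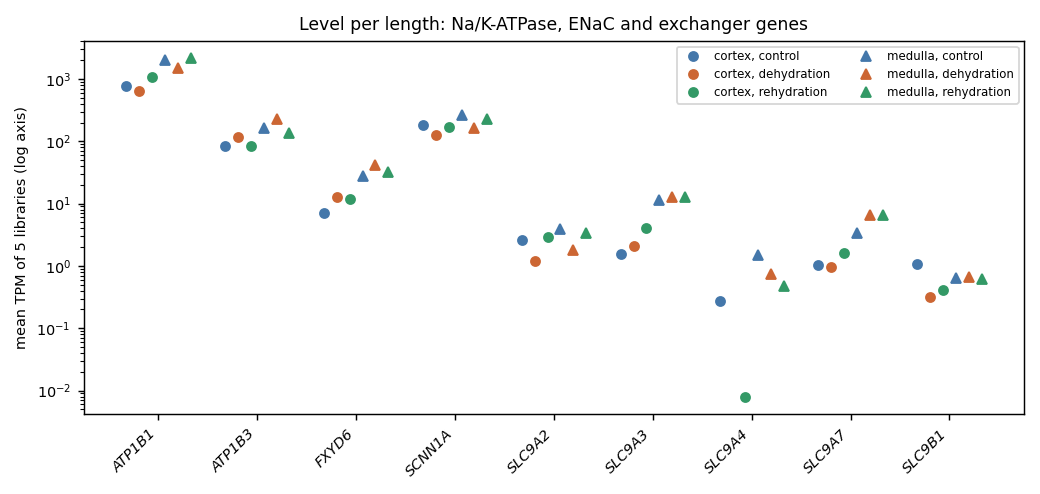
Mean TPM of 5 libraries (log axis) for 9 pump, channel and exchanger genes, by tissue (circles cortex, triangles medulla) and condition. *ATP1B1* is highest, *ATP1B3* and *SCNN1A* lie near 100 TPM or above it, and the exchangers lie below 20 TPM; *SLC9A4* has no point for the dehydrated cortex, where it was at 0.

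Compared per length, *SCNN1A* and *ATP1B3* were abundant transcripts and the exchangers were not. *SCNN1A* averaged 161 TPM in the cortex and 221 TPM in the medulla, above 93.8% and 95.7% of tested genes. *ATP1B3*, at 95.8 and 176 TPM, was above 90.1% and 94.3%. *SLC9A3* averaged 2.57 and 12.4 TPM and was above 32.2% and 46.9% of genes, and *SLC9A7* averaged 1.2 and 5.51 TPM and was above 21.6% and 29.5%. TPM serves here to compare genes and not tissues, because the median tested gene stood higher in medulla than cortex by 0.78 to 0.87 on the log2 TPM scale and by 0.07 to 0.10 on the log2 CPM scale. Relative to that median, *SCNN1A* was not higher in the medulla on either scale.

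Among the other exchangers, *SLC9A2* (NHE2, an apical exchanger of distal tubules) fell with dehydration in the medulla, with a log2 fold change of -1.28 (adjusted p = 0.0391). The control medulla held 2.92, 8.93, 6.01, 6.46 and 5.3 CPM of it and the dehydrated medulla 1.24, 2.36, 3.5, 3.34 and 1.67 CPM, so 1 control lay within the dehydrated range. The call was lost in 8 of 10 fits with 1 library left out, all but those without medulla control 1 or medulla dehydration 3 (adjusted p 0.024 to 0.11), and in 7 of 11 other alternatives (up to 0.119). In the cortex it rose from dehydration to rehydration, with a log2 fold change of 1.30 (adjusted p = 0.0444) and no overlap between 2.67, 3.73, 1.64, 3.08 and 3.21 CPM and 5.81, 8.74, 8.85, 7.74 and 3.87 CPM. In that comparison the groups did not overlap for 4.36% of tested genes, and 2.32% were called. The cortex call of *SLC9A2* held without cortex rehydration 5 and was lost with any other library left out (adjusted p 0.0233 to 0.14) and in 7 of 11 other alternatives. *SLC9A4* (NHE4, a basolateral exchanger) was counted 0 times in all 5 dehydrated cortex libraries, 0, 0, 0, 1 and 0 times in the rehydrated cortex and 24, 0, 3, 0 and 4 times in the control cortex. In the medulla it was counted 0 to 55 times, and none of its differences between conditions passed. *SLC9B1*, of a related antiporter family, was counted 1 to 48 times in the control cortex and 3 to 12 times in the dehydrated cortex (log2 fold change -1.80, adjusted p = 0.0702). As a share of the summed TPM of these 3 exchangers, *SLC9A3* and *SLC9A7*, *SLC9A7* made up 16.4% ± 2.94 in the control medulla, 30.3% ± 7.57 in the dehydrated and 28.2% ± 6.62 in the rehydrated medulla, and *SLC9A3* 53.3% ± 8.14, 55.0% ± 9.36 and 50% ± 16.7.

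Of 73 symbols of sodium transport and its control, 24 had a row, and all 24 were tested. Symbols came largely from the study's lists of genes and proteins that differed between conditions in these same camels. The 24 were therefore preselected for change, and their counts and medians cannot be compared evenly with those of all tested genes. In dehydration against control, 3 were called in the cortex (1 higher, 2 lower) and 4 in the medulla (all lower), where 2.45% and 1.68% of all tested genes were called, with medians of -0.22 and -0.13 against 0.00 and 0.01 over all tested genes. From dehydration to rehydration, 2 were called in the cortex (both higher, median 0.42 against 0.03) and 2 in the medulla (1 higher, 1 lower, median 0.08 against 0.00), where 2.32% and 3.67% of all tested genes were called. In rehydration against control edgeR called none in either tissue, where 0.0845% and 0.813% of all tested genes were called. DESeq2 called 0 in the cortex and 2 in the medulla. At edgeR's unadjusted p under 0.05, 3 were higher and 4 lower in the cortex and 4 higher and 4 lower in the medulla. Of all 15376 tested genes, 661 were higher and 612 lower in the cortex at that threshold, and 1335 and 929 in the medulla. Without *SCNN1A*, *ATP1B3*, *SLC9A3* and *SLC9A7*, the calls of dehydration against control came to 3 of 20 in each tissue. For the medulla, the count of 4 was 0 when its libraries were fitted alone.

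**Figure D5:**
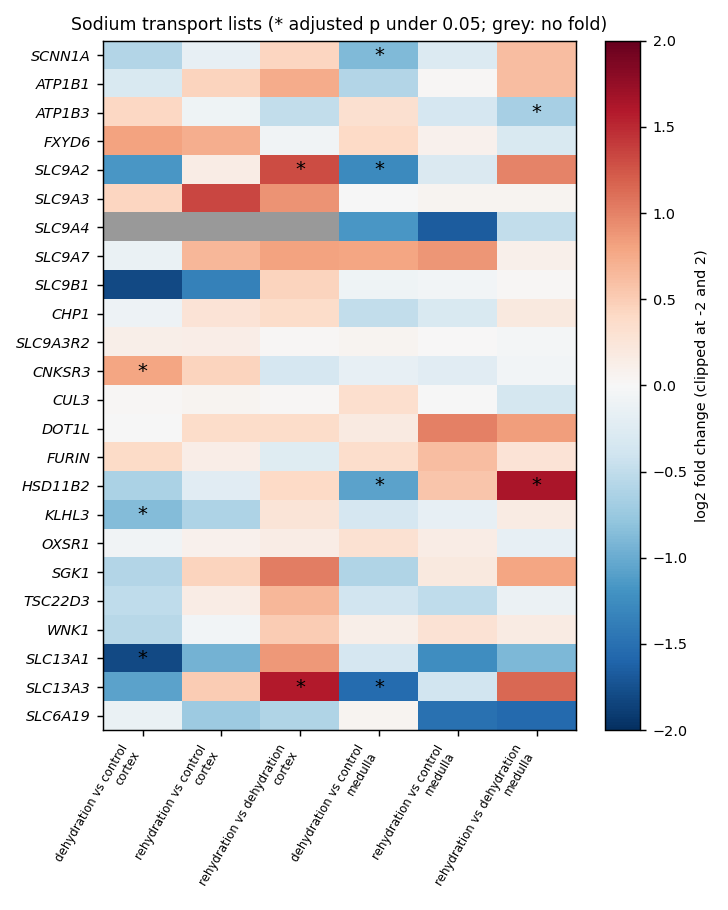
Log2 fold changes (colour, clipped at -2 and 2) of the 24 sodium transport genes with a row in the 6 comparisons of conditions, with a star where edgeR's adjusted p was under 0.05 and grey where a group held at most 3 counts per library. Of the 11 stars, 7 are on lower and 4 on higher values.

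Among 10 regulators of ENaC with a row, the cortex showed 2 calls after dehydration, where 2.45% of all tested genes were called. Their symbols also came largely from the study's lists of genes and proteins that differed in these camels. *CNKSR3*, a scaffold protein of the aldosterone pathway to ENaC, rose from 23.2 to 41.6 CPM in controls to 47.6 to 64.0 CPM in dehydrated camels (log2 fold change 0.79, adjusted p = 0.00174). *KLHL3*, an adaptor of the ubiquitin ligase that removes WNK kinases, fell from 118 to 173 CPM to 67.7 to 94.5 CPM (log2 fold change -0.86, adjusted p = 0.00572). Neither pair of groups overlapped, as was so in 1 direction or the other for 5.53% of tested genes. Both calls held with each library left out and in the 11 other alternatives. *HSD11B2* was called in the medulla, at 112, 162, 204, 121 and 184 CPM in controls, 94.2, 62.7, 82.4, 40.1 and 94.1 CPM in dehydrated and 229, 281, 313, 243 and 90.4 CPM in rehydrated camels. The control and dehydrated groups did not overlap, as was so in 1 direction or the other for 3.79% of tested genes. It fell with dehydration, by the values given with the principal cell markers, and rose from dehydration to rehydration (log2 fold change 1.63, adjusted p = 0.000225, and 0.0554 with the 2 groups alone). *SCNN1A* and *HSD11B2* were both lower in the dehydrated medulla, and *HSD11B2* is on the regulator list and the principal cell list alike. The kinase gene *SGK1*, an early target of aldosterone, had log2 fold changes of -0.59 in the cortex and -0.60 in the medulla after dehydration, which did not pass (adjusted p = 0.351 and 0.37, edgeR).

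Of the 3 other sodium carriers with a row, *SLC13A1*, a sodium-sulfate cotransporter, fell with dehydration in the cortex from 155 to 271 CPM to 38.9 to 87.7 CPM (log2 fold change -1.80, adjusted p = 0.0193). The call was lost without cortex control 4 or cortex dehydration 1, 3, 4 or 5 (adjusted p up to 0.0618). *SLC13A3*, a sodium-dicarboxylate cotransporter, fell with dehydration in the medulla (log2 fold change -1.54, adjusted p = 0.0491) and rose from 377 to 738 CPM in the dehydrated cortex to 1137 to 1907 CPM in the rehydrated cortex (log2 fold change 1.58, adjusted p = 0.0335). The medulla call was lost in 8 of 10 fits with 1 library left out, all but those without medulla control 2 or medulla dehydration 5, and in 8 of 11 other alternatives (adjusted p up to 0.258). The cortex call was lost in 8 of 10, all but those without cortex dehydration 5 or cortex rehydration 3, and in 2 of 11 other alternatives (up to 0.0997). Both *SLC13A1* and *SLC13A3* belong to the proximal tubule. Its 2 markers with a row summed to 1236 to 2293 CPM in control cortex and 653 to 1364 CPM in dehydrated cortex. Of the 2, *SLC22A8* had a log2 fold change of -1.61 (adjusted p = 0.157) and *SLC6A19* of -0.13 (adjusted p = 0.961, edgeR). The part of these differences in the values of *SLC13A1* and *SLC13A3* was not tested. *SLC6A19* and the exchanger partners *CHP1* and *SLC9A3R2* passed no comparison of conditions.

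The levels of the 4 genes did not follow each other as a set. After the mean of each tissue was removed, log2 CPM over the 30 libraries correlated positively only between *SLC9A3* and *SLC9A7* (0.28). *SCNN1A* correlated at -0.25 with *ATP1B3*, -0.25 with *SLC9A3* and -0.28 with *SLC9A7*. *ATP1B3* correlated at -0.22 with *SLC9A3* and -0.41 with *SLC9A7*. These values share libraries and conditions and carry no test. Among 3561 genes with a symbol and at least 1 CPM on average, *SCNN1A* was most like *ATP5F1B* (Pearson's r 0.851), *PPIF* (0.843) and *TPI1* (0.835), and *ATP1B3* most like *UAP1* (0.796), *PPM1G* (0.795) and *TCEA1* (0.777). *SLC9A3* was most like *GOLIM4* (0.903), *LARP1* (0.897) and *PDXDC1* (0.897), and *SLC9A7* most like *ANO8* (0.736), *CASKIN2* (0.725) and *PPP1R26* (0.722). *SLC9A3* shared its pattern with many genes: 465 of the other 15375 tested genes reached an r of 0.8 with it and 53 reached -0.8, against 8, 1 and 0 genes at 0.8 for *SCNN1A*, *ATP1B3* and *SLC9A7*. It also followed the first principal component of each tissue, which held 34.3% of the variance among cortex and 30.8% among medulla libraries, with an absolute r of 0.87 and 0.89. In cortex and medulla, *SCNN1A* reached 0.25 and 0.42, *ATP1B3* 0.12 and 0.08, and *SLC9A7* 0.10 and 0.52.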

How the data were processed

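The authors deposited a table of raw counts of read pairs per gene for the 30 libraries, for which reads trimmed by BBDuk were aligned to CamDro2 and assigned to Ensembl release 100 genes by featureCounts (v1.6.2, reverse-stranded). The methods name STAR and the file headers name Rsubread as the aligner, so the aligner is unsettled. Gene names (3654 identifiers) came from the article's text, its lists of genes and proteins that differed between conditions, and a RefSeq table. A name was therefore more often at hand for genes that had differed in these camels. The 4 genes and all lists were chosen with earlier results of these data known.

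Counts were analysed with edgeR 4.0.16 (R 4.3.3), after filterByExpr with a count of at least 10 and a total of at least 15, with TMM scaling, 1 quasi-likelihood fit of 6 groups, and Benjamini-Hochberg adjustment. The bias-adjusted deviances of edgeR were used, and its older fit was added as an alternative after the calls of both had been seen. The SE is the log2 fold change over the square root of F, and intervals are 95%. Depth was 12634346 to 20005136 read pairs, and counting error at that depth adds to the variation between the 5 libraries of a group. TPM is the count per length scaled to a common total per library. Alternatives were DESeq2 1.42.0, limma-voom (limma 3.58.1), DESeq2's size factors, other filters, fits of 1 tissue or only the compared groups, the RNA integrity number or the last letter of a library's second name as a covariate, blocks, and each library left out.

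The text names, with values, every ENaC subunit, beta subunit of the pump and exchanger kept in the lists, and other genes of the sodium transport lists with an adjusted p under 0.05 in a comparison of conditions; *FXYD6*, *SGK1*, *SLC6A19*, *CHP1*, *SLC9A3R2* and the cell type markers named were chosen after their values were seen. Further genes of the lists are not reported here and were left out of every list count, median and share. The labels give both tissues of a camel the same number. After group means were removed, libraries of a camel correlated at -0.42 to 0.41 across genes (over 0.1 in 8 of 15 camels), and by the labels' second names at -0.14 to 0.54 (9 of 14). Camels of different conditions share only a number.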

Additional observations from a re-analysis of the deposited data

Results flagged for a closer look

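Of 24 groups of 5 libraries (4 genes in 6 groups), 2 held a sample far from the other 4, where chance gives about 1 in 20. *SLC9A3* in medulla rehydration 3 was at 4.78 CPM, while the other 4 rehydrated medullas held 21.2 to 26.6 CPM; the gap was 0.754 of the range of the group, above the limit of 0.71. *SLC9A7* in medulla dehydration 4 was at 15.9 CPM, while the other 4 dehydrated medullas held 7.38 to 9.69 CPM, with a gap of 0.728 of the range. Without that library, the log2 fold change of *SLC9A7* in the medulla was 0.53 for dehydration against control, compared with 0.79 with it, and 0.36 for rehydration against dehydration, compared with 0.10. None of the 8 differences between the responses of the tissues passed the adjusted test of edgeR.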

How the results depend on the processing

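Of 520 values of the 4 genes with 1 library left out, 493 kept their direction and their side of the threshold, and of 444 values under the other alternatives 426 did. The cause was not tested for those that did not. Counting error from depth adds to the variation between camels for *SLC9A3* and *SLC9A7*, which had the lowest counts of the 4 genes, and the share of each was not compared.

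*SCNN1A* in dehydration against control lost its call in the medulla with the medulla libraries alone (-0.87), the 2 groups alone (-0.89) and the replicate number as a block (-0.85, adjusted p = 0.154), and left-out libraries gave -1.02 to -0.71. It gained one in the cortex with the 2 groups alone (-0.60). Its tissue difference in dehydrated camels was called with the 2 groups alone (-0.44) and with the camel as a block by either name (-0.46). It was also called without medulla dehydration 3 (-0.54), and ran from -0.54 to -0.36 with libraries left out. *ATP1B3* from dehydration to rehydration was called in the cortex by DESeq2 (-0.48) and lost its call in the medulla with the 2 groups alone (-0.69; -0.73 to -0.54 with libraries left out). Left-out libraries gave 0.79 to 1.07 for *SLC9A7* in rehydration against control in the medulla and 0.68 to 1.5 for the tissue difference of *SLC9A3* in rehydrated camels.

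Signs turned only for differences near 0. *SLC9A3* in the medulla gave 0.00 by DESeq2, 0.03 with the RNA integrity number and 0.07 with the replicate block for dehydration against control (-0.24 to 0.22 with libraries left out), -0.01 by limma-voom for rehydration against control (-0.07 to 0.30) and -0.03 with the block for rehydration against dehydration (-0.10 to 0.31). *ATP1B3* between tissues in rehydrated camels gave 0.05 by DESeq2 and with its size factors, 0.00 with no filter and 0.06 with the second names as a block (-0.09 to 0.11). Left-out libraries gave -0.17 to 0.01 for *ATP1B3* in rehydration against control and -0.23 to 0.03 for *SLC9A7* in dehydration against control, both in the cortex.

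The counts of sodium transport genes called moved as follows. Dehydration against control in the cortex (3) gave 6 by DESeq2 and with the 2 groups alone, and 5 with the tissue alone and the replicate block. In the medulla (4) it gave 0 with the tissue alone, the block and the 2 groups alone, and 2 with either covariate, by limma-voom and by edgeR's older fit (0 to 3 with libraries left out). Rehydration against dehydration in the cortex (2) gave 4 by DESeq2, 1 with no filter, the block, the 2 groups alone and the RNA integrity number, and 0 by limma-voom and with the letter (0 to 2). In the medulla (2) it gave 0 with the 2 groups alone (1 to 3). Rehydration against control in the medulla (0) gave 2 by DESeq2 and 1 with the tissue alone (0 to 4). The dehydration response between tissues (0) gave 1 by DESeq2 and with a filter on mean CPM, and the rehydration response (0) gave 1 by DESeq2 (each 0 to 1).

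Between conditions camels share only a number, and their same-numbered libraries correlated at -0.39 to 0.41 in the cortex (over 0.1 in 6 of 15 pairs) and -0.36 to 0.47 in the medulla (5 of 15). The block changed no other call of the 4 genes.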
